A study of Rattus norvegicus with 48 samples.

Results

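A set of 9 genes of the fat cell, Adipoq, Plin1, Plin4, Cidec, Lpl, Fabp4, Pparg, Lipe and Cfd, was followed through RNA sequencing counts from the posterior eye and retina of female Long-Evans rats. They were chosen by name as genes of adipocytes, and all 9 were found among the 32883 genes of each table. The study held 48 libraries from 24 animals, a posterior eye library and a retina library from each. Ovariectomy (OVX), the removal of the ovaries, was compared with a sham operation in young rats of 3 to 4 months and in rats of 9 to 10 months, which the series design calls middle-aged and which are called aged here. There were 6 animals in each of 4 groups: sham and OVX among the young rats, sham and OVX among the aged. The labels name no genotype beyond sex, no hormone replacement and no fat depot: the tissue is given only as posterior eye. Levels are in CPM, read counts scaled to a common library size with the TMM factors of edgeR, and the labels do not say how much tissue around the globe was taken.

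White adipocytes store triglyceride in a large lipid droplet and fill the orbit behind the eye together with the extraocular muscles, vessels and connective tissue. Pparg, a nuclear receptor, is the master regulator of their formation. Perilipins and Cidec coat and enlarge the droplet, lipases release fatty acids from it, and the cell secretes adipokines such as adiponectin, the product of Adipoq. Several of these genes also serve other cells: Lpl, Lipe, Fabp4 and Pparg are used by muscle, vessels, macrophages or sebaceous glands.

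Depth ran from 11470945 to 22971367 counts in the posterior eye libraries and from 12916146 to 30737547 in the retina libraries. The posterior eye libraries were mixtures of tissue. The summed level of 9 skeletal muscle genes ran from 8478 to 39477 CPM over the 24 libraries, that of 8 rod photoreceptor genes from 46.8 to 11571 CPM, and that of sebaceous and meibomian gland genes from 32.04 to 2363 CPM. The level of gland genes exceeded 500 CPM in 4 libraries, from animals 2, 4 and 6 of the young sham group and animal 16 of the aged sham group. In such bulk tissue, fewer cells of a type and less RNA per cell cannot be told apart. Library numbers in the labels run in group order. The labels do not say whether the numbers follow the order of handling. If they do, that order and group cannot be told apart.

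The defining genes of the adipocyte were present in every posterior eye library. Adipoq had between 44 and 685 counts per library there, and Plin1, the perilipin that guards the droplet of white adipocytes, between 18 and 295. In the retina, Adipoq had 40 counts over all 24 libraries and none in 8 of them, and Plin1 had 17 counts in all and none in 12. The hormones leptin and resistin, encoded by Lep and Retn, were also detected in the posterior eye, at means of 1.66 and 2.60 CPM. Ucp1, the uncoupling protein of brown fat, had 0 counts in 24 of 24 posterior eye libraries. Pnpla2, the first lipase of the droplet, was also listed at 0 counts in all 24, as was Cldn5, a gene of endothelial tight junctions. In the retina libraries, Ucp1 had 5 counts in all, Pnpla2 had 1 and Cldn5 had 0. The annotation used for counting is not given, so counts of 0 are not read here as absence of these RNAs. The labels do not name fat, so the depot is not given, and the genes are described as adipocyte genes of the posterior eye libraries.

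Adipoq, Plin1 and Cidec were the members that moved most closely together over the libraries, as described below, and the 250 bases before their starts are shown for that reason. They are RefSeq sequences of the GRCr8 build, read 5′ to 3′ on the strand of the gene, which is the minus strand for all 3. Capitals mark matches, on either strand, to CCAAT, the core of the CCAAT box, or to TTGCNNAA, a form of the C/EBP element. None of these matches overlapped. The windows are chr11:91240170-91240419 for Adipoq, chr1:143086149-143086398 for Plin1 and chr4:148137116-148137365 for Cidec.
Adipoq: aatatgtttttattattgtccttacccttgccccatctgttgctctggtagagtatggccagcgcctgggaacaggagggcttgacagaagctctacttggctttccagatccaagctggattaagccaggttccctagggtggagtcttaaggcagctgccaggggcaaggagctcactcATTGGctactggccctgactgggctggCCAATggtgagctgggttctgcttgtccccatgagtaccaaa
Plin1: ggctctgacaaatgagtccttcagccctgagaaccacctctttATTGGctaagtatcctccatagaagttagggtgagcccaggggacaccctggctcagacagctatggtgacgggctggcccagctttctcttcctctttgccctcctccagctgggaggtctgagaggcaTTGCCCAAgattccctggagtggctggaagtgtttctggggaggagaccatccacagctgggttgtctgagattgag
Cidec: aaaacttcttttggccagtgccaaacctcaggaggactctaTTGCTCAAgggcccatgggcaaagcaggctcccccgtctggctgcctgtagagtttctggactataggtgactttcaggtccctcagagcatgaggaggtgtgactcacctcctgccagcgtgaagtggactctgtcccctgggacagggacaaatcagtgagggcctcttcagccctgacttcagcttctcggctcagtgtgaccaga

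Adipoq had 2 CCAAT matches, whose first bases lay 69 bases before the start on the minus strand relative to the gene and 42 bases before it on the plus strand. Plin1 had a CCAAT match on the minus strand, 207 bases before the start, and a TTGCNNAA match 77 bases before it. Cidec had a TTGCNNAA match 209 bases before its start and no CCAAT. Among 33469 promoters of the same length, 34.02% held CCAAT and 9.22% held TTGCNNAA. TATAAA, the TATA box, which 12.9% of promoters held, was not in these 3 windows. Neither was AGGTCA, the core bound by nuclear receptors (14.1%), or a pair of AGGNCA with 1 base between, the form bound by Pparg with its partner Rxra (0.368%). Of the 9 members, 6 had a promoter entry: Adipoq, Plin1, Cidec, Pparg, Cfd and Plin4. Lpl, Fabp4 and Lipe are named only.

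The question put by the design is whether loss of the ovaries, at either age, changes expression in the posterior eye. Under edgeR's quasi-likelihood test, with p-values adjusted over all genes by the Benjamini-Hochberg method and calls at an adjusted p under 0.05, none of the 9 adipocyte genes was called for OVX in young rats, where 0.0061% of the 16401 genes tested were called in either direction. None was called for OVX in aged rats (background 0%), for OVX averaged over both ages (0%), for age in sham rats (0%), for age in OVX rats (0%) or for the interaction of OVX and age (0%). With so few calls among all genes, these counts of 0 say little about the adipocyte genes in particular. At an unadjusted p under 0.05, Lpl alone of the 9 passed for OVX in young rats and for OVX averaged over both ages, and 0 of 9 passed in each of the other 4 comparisons. All genes had 1023, 422, 938, 481, 1663 and 487 such p-values in the same order of comparisons. DESeq2 and limma-voom likewise called 0 of 9 in each of these posterior eye comparisons.

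Adipoq, which encodes the hormone adiponectin, had a lowest, median and highest level of 9.88, 14.0 and 19.1 CPM in young sham rats. In young OVX rats these were 8.61, 12.1 and 26.5 CPM. In aged sham rats they were 10.0, 18.6 and 33.0 CPM, and in aged OVX rats 2.89, 20.8 and 34.3 CPM. The groups overlapped throughout, and aged OVX rats held both the lowest and the highest library of all 24. The means were 14.4 ± 3.48 (SD, n = 6) in young sham and 14.2 ± 6.39 in young OVX, 19.5 ± 7.48 in aged sham and 19.2 ± 10.2 in aged OVX. The log2 fold change with OVX was -0.02 ± 0.37 (SE) in young rats, with a 95% interval of 0.579-fold to 1.67-fold, and -0.03 ± 0.37 in aged rats, with an interval of 0.579-fold to 1.67-fold. With 6 animals a group, changes anywhere within these intervals remained possible. Their ends are not a limit of detection, since calls were made on p-values adjusted over all genes.

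The genes of the lipid droplet were as variable. Plin1 had a median of 5.78 CPM in young sham rats (lowest 4.28, highest 8.47) and 5.06 CPM in young OVX rats (3.40 to 7.42). Its median was 7.13 CPM in aged sham rats (3.64 to 14.2) and 7.43 CPM in aged OVX rats (1.18 to 8.93). Its log2 fold change with OVX was -0.18 ± 0.34 in young and -0.22 ± 0.34 in aged rats. All 4 ranges overlapped, and the widest were those of the aged groups.

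Cidec, which promotes droplet fusion, had a median of 6.15 CPM in young sham rats (3.90 to 7.05), 4.86 CPM in young OVX rats (2.51 to 9.31), 7.13 CPM in aged sham rats (2.75 to 16.2) and 8.78 CPM in aged OVX rats (1.18 to 12.3). Its changes with OVX were -0.11 ± 0.43 in young and -0.09 ± 0.42 in aged rats on the log2 scale. Plin4, a perilipin of small droplets in fat and muscle, had medians of 8.13 CPM in young sham (6.62 to 11.5), 6.74 CPM in young OVX (3.72 to 12.1), 9.28 CPM in aged sham (2.91 to 14.1) and 7.39 CPM in aged OVX rats (6.04 to 8.35). For Plin4 the changes were -0.21 ± 0.29 and -0.26 ± 0.29. The sham and OVX ranges of both genes overlapped at each age.

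The genes of fatty acid release and handling gave narrower intervals for Lpl and Lipe. Lpl, the lipase that frees fatty acids from circulating lipoproteins, had a median of 122 CPM in young sham (111 to 158) and 154 CPM in young OVX rats (97.0 to 187). In aged rats it was 127 CPM in sham (111 to 143) and 134.5 CPM in OVX (129.5 to 149). In young rats 5 of the 6 OVX libraries lay above the sham median, and the lowest library of all was also a young OVX library. The log2 fold change was 0.25 ± 0.11 in young rats (unadjusted p = 0.0429, edgeR adjusted p = 0.785) and 0.10 ± 0.11 in aged rats. The intervals were 1.01-fold to 1.40-fold in young and 0.909-fold to 1.26-fold in aged rats.

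Lipe, the hormone-sensitive lipase, had medians of 21.4 CPM in young sham (18.4 to 27.1), 22.6 CPM in young OVX (18.4 to 29.5), 20.8 CPM in aged sham (19.0 to 23.2) and 21.2 CPM in aged OVX rats (17.9 to 28.6). Its changes with OVX were 0.05 ± 0.12 in young and 0.07 ± 0.12 in aged rats, with an interval in young rats of 0.866-fold to 1.23-fold. Fabp4, the fatty acid carrier of adipocytes and capillaries, had medians of 25.8 CPM in young sham (19.0 to 27.5), 24.9 CPM in young OVX (17.1 to 36.0), 33.1 CPM in aged sham (11.8 to 42.7) and 27.7 CPM in aged OVX rats (20.8 to 31.8). For Fabp4 the changes were 0.14 ± 0.21 and -0.18 ± 0.21. Neither gene separated the groups.

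Cfd, the complement factor adipsin that fat secretes, had a median of 75.5 CPM in young sham rats (63.2 to 136), 72.3 CPM in young OVX rats (43.8 to 107), 72.5 CPM in aged sham rats (69.1 to 166) and 87.8 CPM in aged OVX rats (33.6 to 118.5). Its changes with OVX were -0.20 ± 0.28 in young and -0.18 ± 0.28 in aged rats. Pparg had a median of 8.57 CPM in young sham rats (2.82 to 20.9), 7.03 CPM in young OVX rats (5.70 to 10.2), 6.86 CPM in aged sham rats (6.46 to 19.3) and 9.19 CPM in aged OVX rats (8.33 to 12.6). Young sham rats spanned the whole range of Pparg, from the lowest to the highest of all 24 libraries. The change with OVX was -0.57 ± 0.35 in young rats (edgeR adjusted p = 0.882) and 0.08 ± 0.35 in aged rats.

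**Figure D1:**
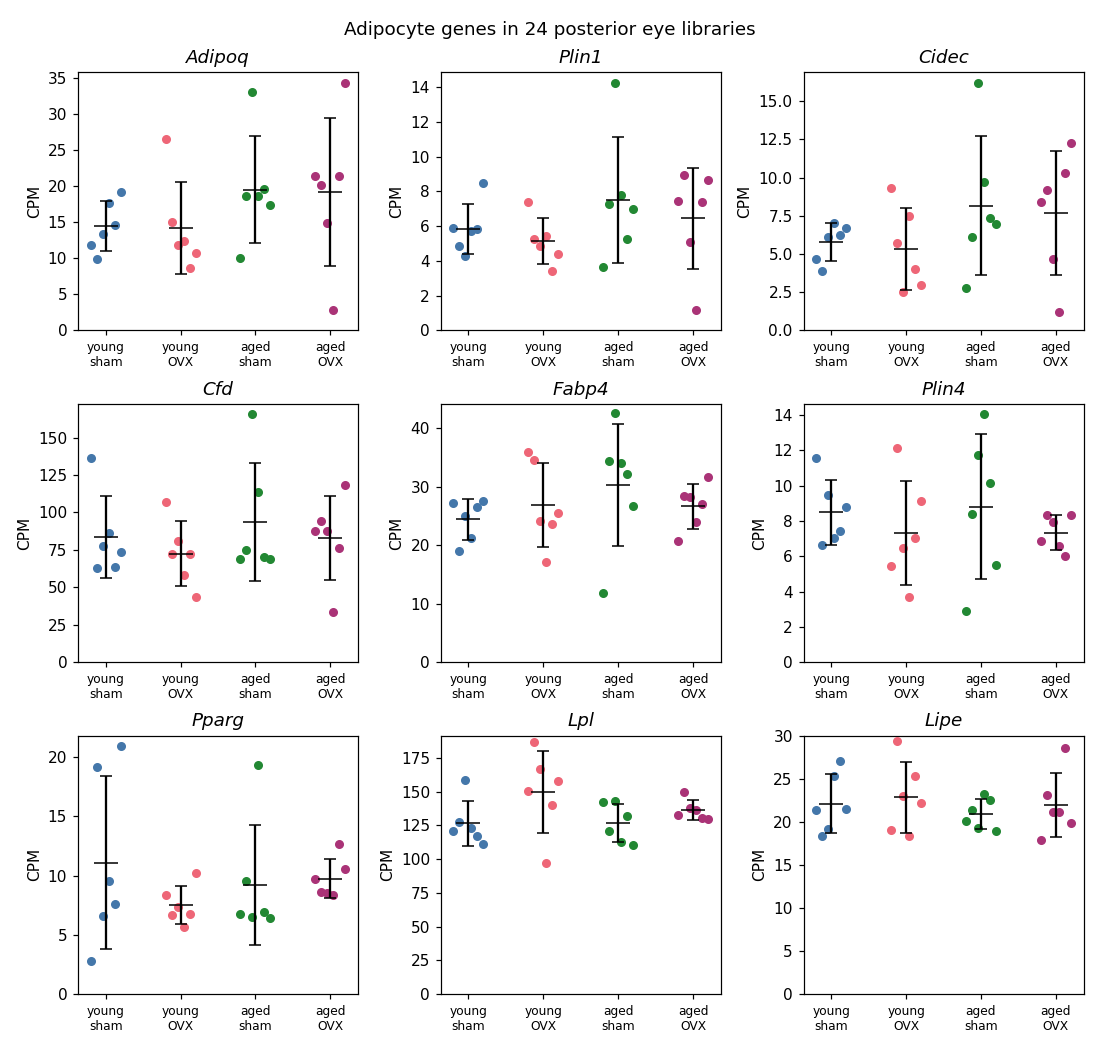
CPM of the 9 adipocyte genes (vertical axes, from 0) in the 24 posterior eye libraries, in the 4 groups of 6 animals, with points for animals in order of their number and black bars for the mean and SD. All 4 groups overlap for every gene, and 1 aged OVX library, from animal 22, is lowest for Adipoq (2.89 CPM), Plin1 and Cidec (1.18 CPM each) and Cfd (33.6 CPM).

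Over the 9 genes the median log2 fold change with OVX was -0.11 in young rats (range -0.57 to 0.25, 3 above 0) and -0.09 in aged rats (range -0.26 to 0.10, 3 above 0), beside medians of -0.01 and 0.00 over all genes tested. For the interaction the median was -0.0043 (range -0.32 to 0.65). With age, the members were above 0 in 7 of 9 cases in sham rats, with a median of 0.17 (range -0.27 to 0.50), and in 6 of 9 in OVX rats, with a median of 0.19 (range -0.14 to 0.52). All genes had medians of -0.02 in both. The age comparisons gave Adipoq 0.44 ± 0.37, Cidec 0.50 ± 0.42, Plin1 0.37 ± 0.34 and Fabp4 0.31 ± 0.21 in sham rats. For Cfd the value was 0.17 ± 0.27, for Plin4 0.06 ± 0.29, for Lpl 0.01 ± 0.11, for Lipe -0.08 ± 0.12 and for Pparg -0.27 ± 0.35. The lowest adjusted p of these 9 was 0.9998 and none passed the test. The young and aged ranges overlapped for each of the 9 genes.

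**Figure D2:**
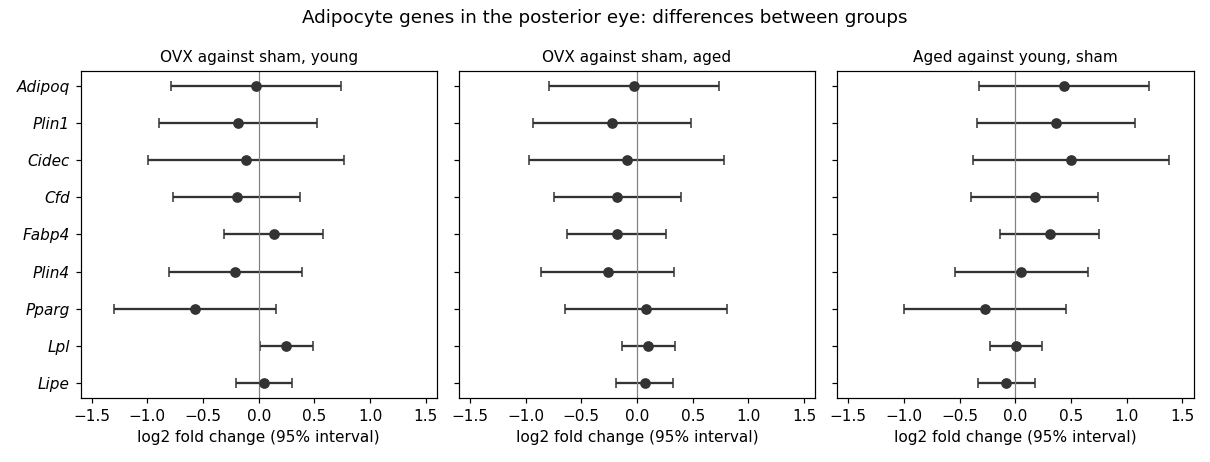
Log2 fold changes (horizontal axes) of the 9 adipocyte genes in the posterior eye with 95% intervals from edgeR, for OVX against sham in young rats, OVX against sham in aged rats, and aged against young sham rats. The interval of Lpl in young rats runs from 0.01 to 0.48 and every other interval contains 0.

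The remaining genes of the pathway were grouped by role. For OVX in young rats, 4 of 15 other droplet and triglyceride genes lay above 0 (median -0.10), 5 of 8 lipolysis genes (0.03), 4 of 11 fatty acid uptake genes (-0.10), 2 of 12 lipogenesis genes (-0.33), 8 of 12 adipokine and receptor genes (0.04), 6 of 13 transcription factors (-0.02) and 4 of 12 other adipocyte genes (-0.04). None of these genes was called. In aged rats the counts above 0 were 3 of 15, 3 of 8, 5 of 11, 5 of 12, 4 of 12, 5 of 13 and 3 of 12, again with 0 called. Brown fat genes gave 5 of 9 above 0 in young and 1 of 9 in aged rats, and preadipocyte and fibroblast genes 5 of 8 and 3 of 8. No gene of these lists was called by edgeR in either.

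Several genes with small p-values in young rats are also used by sebaceous and meibomian glands. Scd, the enzyme that makes monounsaturated fatty acids, had a median of 872 CPM in young sham (68.99 to 5016) and 104 CPM in young OVX rats (83.4 to 335), a log2 fold change of -3.54 ± 1.11 (edgeR adjusted p = 0.661). Cidea, a relative of Cidec, had medians of 50.6 CPM (15.4 to 194) and 18.5 CPM (10.6 to 25.2), and a change of -2.03 ± 0.65 (adjusted p = 0.661). Plin2, the perilipin of many cell types, had medians of 88.7 CPM (40.5 to 268) and 46.7 CPM (40.8 to 57.2), and a change of -1.35 ± 0.48 (adjusted p = 0.676).

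Scd, Cidea and Plin2 were higher in the libraries with a high level of gland genes. In the 4 libraries with over 500 CPM of gland genes, Scd ran from 1636 to 5016 CPM, against 47.6 to 335 CPM in the other 20. Cidea ran from 76.5 to 194 CPM there, against 10.6 to 39.0 CPM, and Plin2 from 124 to 268 CPM, against 32.6 to 57.2 CPM. The summed lipogenesis genes, which include Scd, were at 4152, 2832 and 6619 CPM in animals 2, 4 and 6 of the young sham group and at 1304, 1352 and 1179 CPM in animals 1, 3 and 5, beside 1124 to 1399 CPM in young OVX rats. Without those 4 libraries the changes with OVX in young rats were 0.61 for Scd, -0.11 for Cidea and 0.04 for Plin2. The 4 libraries were set apart after seeing the data, and the young ones among them were all sham. Whether gland tissue accounts for the differences of Scd, Cidea and Plin2 was not tested. Angptl4, an inhibitor of Lpl, had a smaller unadjusted p (0.00211) than Scd (0.00437), Cidea (0.00487) and Plin2 (0.00946). It went from a median of 13.6 CPM in young sham (10.1 to 17.6) to 8.72 CPM in young OVX rats (6.89 to 9.52), a change of -0.65 ± 0.19 (edgeR adjusted p = 0.661) and of -0.47 without those libraries. Angptl4 was named for its small p, so the gap between its ranges is no separate result.

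Pparg had its 3 highest values in those libraries. These were 20.9 CPM in animal 6, 19.3 CPM in animal 16 and 19.2 CPM in animal 2, and the remaining library, from animal 4, had 9.58 CPM. The other 20 libraries ran from 2.82 to 12.6 CPM. Without the 4 libraries the change of Pparg with OVX in young rats was 0.40 (edgeR adjusted p = 0.978) in place of -0.57, and its change with age in sham rats 0.34 in place of -0.27. Whether gland tissue accounts for the Pparg values was not tested.

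The adipocyte genes differed in how far they spread between animals. Over 24 libraries the highest level was 13.7-fold the lowest for Cidec, 12.1-fold for Plin1 and 11.9-fold for Adipoq. The ratio was 7.42-fold for Pparg, 4.94-fold for Cfd, 4.84-fold for Plin4, 3.63-fold for Fabp4, 1.93-fold for Lpl and 1.65-fold for Lipe. The biological coefficient of variation within groups was 50.4% for Cidec, 44.1% for Adipoq, 42.1% for Pparg and 40.7% for Plin1, but 15.3% for Lpl and 16.1% for Lipe, with a median of 20.2% over all genes tested. Adipoq, Plin1, Cidec and Pparg had the widest intervals in the comparisons above.

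Adipoq, Plin1, Cidec and Cfd went up and down together. Over 24 animals, log2 CPM of Plin1 followed that of Adipoq with Pearson's r = 0.93 and Spearman's rho = 0.87 (permutation test with 100000 draws, adjusted p over 8 relations = 4e-05 for each). Cidec followed it with r = 0.92 and rho = 0.90 (permutation adjusted p = 4e-05 for each), where the unadjusted p of 1e-05 is the smallest the draws can give. Cfd gave r = 0.74 and rho = 0.64 (permutation adjusted p = 0.00024 and 0.00186). Without the 2 libraries farthest from the median of Adipoq, r was 0.88 for Plin1, 0.87 for Cidec and 0.56 for Cfd. After each group was centred on its own mean, r was 0.94, 0.92 and 0.73. These values share the library, so its tissue makeup enters both sides of each relation.

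Fabp4 stood between, with r = 0.51 and rho = 0.64 against Adipoq (permutation adjusted p = 0.0348 and 0.00186), and r = 0.65 without the 2 farthest libraries. The other 4 members did not follow Adipoq beyond the test: r was 0.26 for Plin4 (permutation adjusted p = 0.343), 0.15 for Pparg (0.626), -0.08 for Lpl (0.797) and -0.06 for Lipe (0.797). Spearman's coefficients for these were 0.23, 0.29, -0.08 and -0.04 (permutation adjusted p = 0.363, 0.282, 0.808 and 0.839).

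Some of these genes moved with markers of other tissues, among 63 relations of 9 members with 7 marker lists. Plin4 followed the summed level of skeletal muscle genes with r = 0.84 and rho = 0.72 (permutation adjusted p over 63 relations = 0.00063 and 0.00504), and r = 0.66 without the 2 libraries farthest from the muscle median. Fabp4 followed it with r = 0.78 and rho = 0.59 (permutation adjusted p = 0.00084 and 0.0358), and r = 0.51 without 2. Adipoq did not, at r = 0.07 (permutation adjusted p = 0.784). Animal 13, an aged sham rat, had the lowest muscle level, 8478 CPM, and also the lowest Plin4, 2.91 CPM, and the lowest Fabp4, 11.8 CPM.

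Lipe followed the endothelial genes with r = 0.75 and rho = 0.67 (permutation adjusted p = 0.00084 and 0.017), and r = 0.69 without 2 libraries. Plin1 and Cidec ran against the endothelial genes by rank, with rho = -0.60 and -0.59 (permutation adjusted p = 0.0358 for each). Their r was -0.45 and -0.47 (permutation adjusted p = 0.157 and 0.131), and -0.54 and -0.50 without 2 libraries. Adipoq gave r = -0.41 and rho = -0.54 (permutation adjusted p = 0.173 and 0.0632). Lpl followed the summed preadipocyte and fibroblast genes with r = 0.68 and rho = 0.58 (permutation adjusted p = 0.00425 and 0.0358), and r = 0.67 without 2. Dcn made up most of that sum, at a mean of 3451 CPM beside 46.7 CPM for Pdgfra and 17.4 CPM for Dpp4, with both tissues scaled together. The relations of Lpl with endothelial genes (r = 0.59, rho = 0.43, permutation adjusted p = 0.034 and 0.165) and macrophage genes (r = 0.57, rho = 0.50, permutation adjusted p = 0.034 and 0.0942) fell to r = 0.32 and 0.38 without 2 libraries. Fabp4 ran against genes of the retinal pigment epithelium (r = -0.59, rho = -0.37, permutation adjusted p = 0.034 and 0.242; r = -0.45 without 2). For the gland genes, whose levels fall into separate clusters, r was taken only within the 20 libraries under 500 CPM, where it was -0.39 for Pparg (rho = -0.44, permutation adjusted p = 0.24 and 0.187). Which cells held the RNA was not tested.

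**Figure D3:**
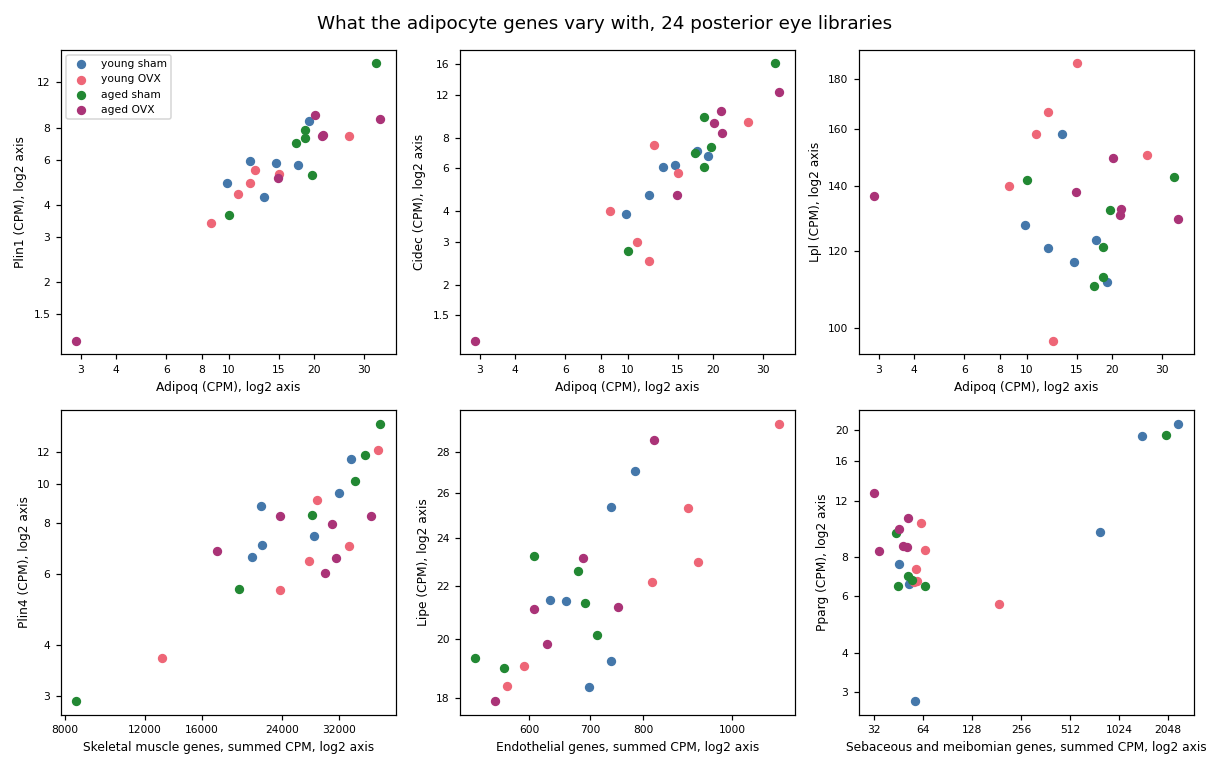
Levels in 24 posterior eye libraries on log2 axes, coloured by group: Plin1, Cidec and Lpl against Adipoq (CPM), Plin4 against summed skeletal muscle genes, Lipe against summed endothelial genes, and Pparg against summed sebaceous and meibomian genes. Plin1 and Cidec follow Adipoq (r = 0.93 and 0.92) while Lpl does not (r = -0.08), and 4 libraries stand apart on the gland axis.

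Ranking 13658 genes by their correlation with the mean log2 CPM of the 9 members over the 24 libraries put Retn, the adipokine resistin, first with r = 0.84. It was followed by Ces1d, a carboxylesterase that hydrolyses triglyceride in adipocytes and liver (0.83), Asgr2, a receptor for galactose-ending glycoproteins (0.82), Alox5, the leukotriene-forming lipoxygenase (0.82), and Pi16, a marker of adventitial fibroblasts (0.79). C1qb, a chain of complement C1q (0.79), Ackr2, a chemokine scavenger (0.79), Lep (0.78), Mrc1, the mannose receptor of resident macrophages (0.78), and Procr, the endothelial protein C receptor (0.76), completed the 10. After centring on group means, 6 of these 10 were again among the first 10. The members' mean itself followed Adipoq, Plin1 and Cidec most closely (r = 0.91, 0.90 and 0.89). It followed Pparg (0.29), Lipe (0.10) and Lpl (-0.01) least. The summed macrophage genes, which include C1qb and Mrc1, gave r = 0.36 with Adipoq, 0.16 with Plin1 and 0.11 with Cidec. None of these passed (permutation adjusted p over 63 relations = 0.246, 0.659 and 0.659). Summed preadipocyte and fibroblast genes, which include Pi16, gave 0.29, 0.22 and 0.15 (0.357, 0.465 and 0.659). For the endothelial genes r was -0.41, -0.45 and -0.47, as given above. Animal 22 had the lowest level of 9 of the 10, Procr being the exception. The 10 were picked over the same libraries by likeness to members that were lowest in animal 22, so this count is no separate result. In the library of animal 22 Retn and Lep were at 0.262 CPM each, and its library number is the first in the aged OVX group to leave the regular step of the labels. The posterior eye number of animal 23 is out of place in the same way.

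The posterior eye was set against the retina of the same animals in a fit over all 48 libraries. All 9 members were called higher in the posterior eye, where 47.8% of the 17153 genes tested were called higher. Fabp4 averaged 28.5 ± 7.40 CPM (SD, n = 24) in the posterior eye and 0.0892 ± 0.0874 CPM in the retina, a log2 difference of 8.19 ± 0.21. Adipoq averaged 17.7 ± 7.84 against 0.0839 ± 0.0832 CPM, a difference of 7.87 ± 0.27. For Cfd the means were 87.4 ± 31.1 and 0.478 ± 0.240 CPM (7.56 ± 0.18), and for Plin1 6.56 ± 2.74 and 0.0350 ± 0.0409 CPM (7.40 ± 0.27). These 4 genes had the largest tissue differences of the members.

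Plin4 differed by 4.45 ± 0.17, at 8.40 ± 2.83 against 0.394 ± 0.171 CPM. Pparg differed by 3.82 ± 0.18, at 9.90 ± 4.83 against 0.692 ± 0.211 CPM, and Cidec by 3.43 ± 0.26, at 7.09 ± 3.64 against 0.639 ± 0.395 CPM. Lpl differed by 2.86 ± 0.07, at 141 ± 21.8 against 19.7 ± 4.39 CPM. Lipe differed least, by 0.53 ± 0.05, at 23.1 ± 3.34 against 16.0 ± 1.36 CPM, a ratio of 1.44. Each member was higher in the posterior eye in 24 of 24 animals, except Cidec in 23 of 24, and the highest edgeR adjusted p was 5.59e-13, that of Lipe.

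**Figure D4:**
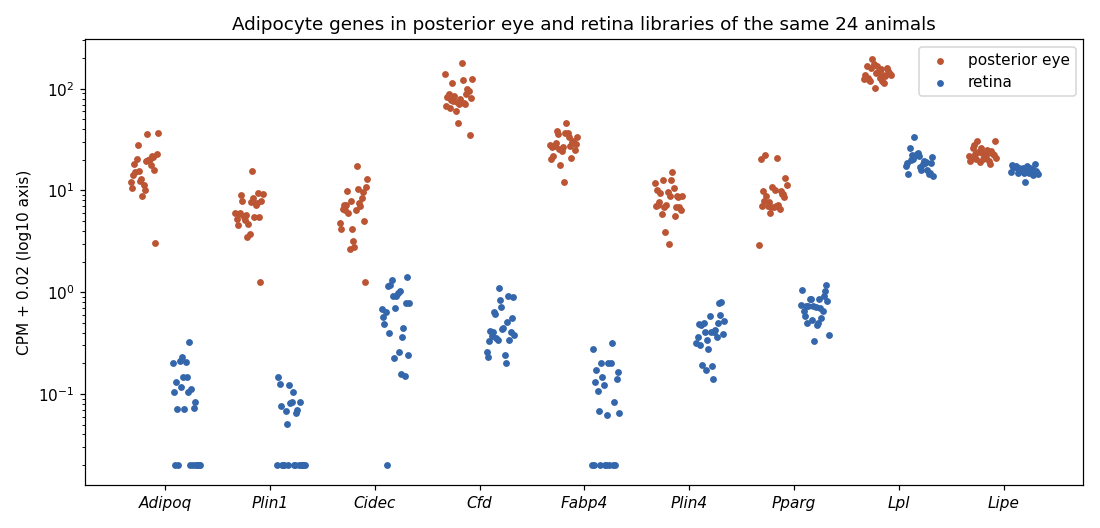
CPM plus 0.02 on a log10 axis for the 9 adipocyte genes in posterior eye and retina libraries of the same 24 animals, 1 point per library, with all 48 libraries scaled together. The tissues lie far apart for Adipoq, Plin1, Cfd and Fabp4, and close together for Lipe (means 23.1 and 16.0 CPM).

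In the retina, Cidec, Lpl, Pparg, Lipe and Cfd passed the filter on low counts and the other 4 members did not. None of the 5 was called by edgeR for OVX in young rats (background 0.0194% of 15481 genes), OVX in aged rats (0.00646%), OVX averaged over both ages (0.0517%), age in sham rats (0.0388%), age in OVX rats (0.0711%) or the interaction (0.0452%). At an unadjusted p under 0.05 the members numbered 2, 0, 1, 0, 1 and 1 in that order. For OVX in young rats these were Cfd (edgeR unadjusted p = 0.0128) and Lpl (0.0329). By p they ranked 656 and 1316 among the 15481 genes, so p-values of this size were common. For age in OVX rats the member was Lpl (edgeR unadjusted p = 0.000293, rank 46). Lpl in the retina had a median of 20.1 CPM in young sham (15.5 to 27.5), 23.6 CPM in young OVX (21.3 to 35.5), 19.3 CPM in aged sham (16.2 to 20.4) and 16.0 CPM in aged OVX rats (14.5 to 22.7).

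The young OVX libraries were thus the highest for retinal Lpl, with ranges that overlapped those of young sham and aged OVX rats. The change with OVX in young rats was 0.29 ± 0.13 (edgeR adjusted p = 0.385), and aged OVX rats were lower than young OVX rats by -0.55 ± 0.13 on the log2 scale (edgeR adjusted p = 0.0986). DESeq2 called this last difference at an adjusted p of 0.0123, and edgeR did not. Genes of the pigment epithelium moved in the same directions in these comparisons of retina libraries: 6 of 8 lay above 0 for OVX in young rats (median 0.79, 0 called) and 6 of 8 below 0 for aged against young OVX rats (median -1.02, 2 called). Their summed level ran from 583 to 776 CPM in young sham, 592 to 841 CPM in young OVX and 530.2 to 582 CPM in aged OVX rats, so that the aged OVX libraries lay below the young OVX libraries. In aged sham rats it ran from 692 to 1059 CPM. Rlbp1 made up most of this sum, at a retina mean of 429 CPM beside 105 CPM for Ttr, with both tissues scaled together. Its mean was lower in the posterior eye (284 CPM), so the sum does not measure pigment epithelium alone. Among the pigment epithelium genes, Rgr, a retinal G protein-coupled receptor, had log2 values of 0.95 ± 0.26 (edgeR adjusted p = 0.173) and -1.51 ± 0.27 (0.019), and Ttr, the carrier transthyretin, 0.89 ± 0.28 (0.211) and -1.64 ± 0.29 (0.019). For OVX in aged rats, Rgr was at -1.41 ± 0.27 and Ttr at -1.53 ± 0.29 (edgeR adjusted p = 0.113 for each). The rest of the list was at -1.26 (Rpe65), -1.10 (Rdh5), -0.87 (Lrat), -0.16 (Rlbp1), 0.11 (Mertk) and 0.22 (Best1), none called. Lpl was at -0.12 ± 0.13 in that comparison (edgeR adjusted p = 0.925). The part of the pigment epithelium genes in the Lpl differences was not tested. Cfd in the retina rested on 4 to 21 counts per library and averaged 0.331 ± 0.0800 CPM (n = 6) in young sham and 0.657 ± 0.307 CPM in young OVX rats, a change of 0.95 ± 0.35 that did not pass (edgeR adjusted p = 0.302). In the same comparison 6 of the 8 pigment epithelium genes lay above 0 (median 0.79), without passing the test. For OVX in young rats, 7 of 8 macrophage genes lay above 0 (median 0.14, summed level 52.1 to 61.3 CPM in young sham and 53.4 to 74.7 CPM in young OVX rats). Of the preadipocyte and fibroblast genes, 4 of 6 did (median 0.07, 16.7 to 29.7 CPM and 22.7 to 48.9 CPM). The part of these lists in the Cfd difference was not tested.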

How the data were processed

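RNA from posterior eye and retina of 24 animals was sequenced after low-input cDNA amplification (SMART-Seq v4) and Nextera XT fragmentation, per the labels' protocols, which name no strand-marking step. The authors deposited 1 table of raw counts per gene for each tissue. Per the submitters' processing notes, STAR 2.7.3a, HTSeq, DESeq2 and the Rnor_6.0 build were used. Sources used here do not give the annotation or the settings of the counter, and reads of overlapping genes may be mixed. Of the posterior eye gene names, 25 had become dates, and these were left out of the fit over both tissues.

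Counts were fitted with edgeR 4.0.16 (R 4.3.3): TMM scaling, filterByExpr, 1 mean per group over the 4 groups of a tissue (8 groups for the tissue difference) and the quasi-likelihood F test. Two-sided p-values were adjusted over all genes of a fit. The standard error is the log2 fold change divided by the root of F. Alternatives used DESeq2 1.42.0, limma-voom (limma 3.58.1), unscaled totals, no filter, the compared groups only, a replicate block, and leaving out each posterior eye library. Correlations used log2 CPM with a prior count of 2 and 100000 permutations (SciPy 1.17.1). The fit was tested on simulated data. The adipocyte genes, the other lists and the tests were chosen with earlier results of these data known. All 9 adipocyte genes are reported whatever their values. From the other lists, genes with the smallest p are named, and the 10 genes at 1 CPM or more that correlate most with the members' mean. The alternative without libraries rich in gland genes was chosen after seeing the data.

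Both tissues came from the same animals by the titles' animal numbers. Deviations from the group means correlated on average at r = 0.08 between the tissues of an animal, over 24 animals.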

Additional observations from a re-analysis of the deposited data

Results flagged for a closer look

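In 56 groups of 6 libraries examined (the members in the posterior eye and the members tested in the retina, by group), 7 had a library that stood apart from the other 5 by Dixon's criterion, which chance meets in about 1 of 20 groups. The same libraries recur over genes that correlate, so the groups were not independent. The 7 therefore cannot be set against that rate. Animal 22 of the aged OVX group was the lowest in its group for Adipoq (2.89 CPM, the next library 14.9), Plin1 (1.18 CPM, next 5.07) and Cfd (33.6 CPM, next 75.9). The same library had 31502 CPM of muscle genes and 750.1 CPM of endothelial genes, both inside the range of the other libraries, and a total of 15973085 counts. Its Lpl was 136.7 CPM and its Lipe 21.2 CPM, near the group medians. Library numbers in the posterior eye labels rise by 3 from animal to animal up to 61 for animal 21, and animals 22, 23 and 24 carry 66, 69 and 70, so the step changes at this library. In animals 22 and 23 the posterior eye number comes after the retina number (65 and 68). In animal 24 it comes before it (71), as in the other animals. Animal 23 had 22.7 CPM of Adipoq with both tissues scaled together, against 3.01 CPM in animal 22. Whether the numbering bears on the levels of animal 22 was not tested. Animal 13 of the aged sham group was the lowest for Fabp4 (11.8 CPM, next 26.7), and had the lowest muscle level of all libraries. Animal 16 of the same group was the highest for Pparg (19.3 CPM, next 9.52), and its gland level was 1984 CPM. In the retina, animal 5 (young sham) was listed at 0 CPM for Cidec where the next library had 0.497 CPM, and animal 8 (young OVX) had 35.5 CPM of Lpl where the next had 24.8 CPM.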

How the results depend on the processing

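The counts of adipocyte genes called, 0 of 9 in each posterior eye comparison between groups and 9 of 9 between tissues, held under every alternative run. In the retina the count for age in OVX rats was 1 with DESeq2 (Lpl) and 0 otherwise. Calls among all genes varied more: for OVX in young posterior eyes from 0 to 12 (edgeR 1), averaged over ages 0 to 29 (0), age in sham 0 to 5 (0), age in OVX 0 to 65 (0), and in the retina 0 to 62 (3), 0 to 9 (1), 0 to 51 (8), 2 to 66 (6), 10 to 68 (11) and 6 to 22 (7) for OVX in young, in aged, averaged, age in sham, age in OVX and interaction, the highest each time with DESeq2. The tissue difference ran from 15938 to 19051 (15949). With the animal as a replicate block 9 of 9 members were called between tissues. With the number within the group as block, run only for comparisons between groups, 0 of 9 were called in each posterior eye comparison. That number did not pair the libraries (mean r of same-numbered deviations 0.15 in the posterior eye, lowest -0.51, with 5 of 24 libraries closest to their own number), and the block changed no call of a member. Several fold changes, none of them called, changed sign, including those of Scd, Plin2 and Pparg for OVX in young rats (-3.54, -1.35 and -0.57 with all libraries). With limma-voom Plin4 with age in sham rats was -0.057, and on unscaled totals Adipoq with OVX in young rats was 0.0071. Without the 4 libraries rich in gland genes, the young OVX values were 0.094 for Adipoq, 0.40 for Pparg, 0.61 for Scd and 0.038 for Plin2, and the values with age in sham rats -0.29 for Plin4, -0.025 for Lpl, 0.34 for Pparg and -0.038 for Cfd. The cause was not tested. Leaving out each library in turn gave log2 ranges, for OVX in young rats, of -0.30 to 0.10 (Adipoq), -0.34 to 0.0069 (Cfd), -0.34 to 0.046 (Cidec) and -0.039 to 0.11 (Lipe). For OVX in aged rats they were -0.27 to 0.20 (Adipoq), -0.31 to 0.065 (Cfd), -0.29 to 0.22 (Cidec), -0.021 to 0.13 (Lipe), -0.39 to 0.060 (Plin1) and -0.027 to 0.42 (Pparg). For age in sham rats they were -0.069 to 0.40 (Cfd), -0.12 to 0.0018 (Lipe), -0.030 to 0.081 (Lpl), -0.12 to 0.25 (Plin4) and -0.61 to 0.026 (Pparg). In aged rats the upper ends came without animal 22 for Adipoq and without animal 15 for Cfd, Cidec and Plin1. Unscaled totals moved the 36 group means by -2.66% to 3.04%. With 6 animals a group, changes anywhere within the 95% intervals, such as 0.502-fold to 1.70-fold for Cidec with OVX in young rats, remained possible. The ends of the intervals are not a limit of detection.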
